A study of Bos taurus with 3 samples.

Results

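The 4 genes described here belong to the major histocompatibility complex (MHC) class II system of cattle: BOLA-DRA (ENSBTAG00000010645), CD74 (ENSBTAG00000015228), BOLA-DMB (ENSBTAG00000012451) and BLA-DQB (ENSBTAG00000019588). They were taken by symbol from the 21861 genes listed in the count matrices. Their levels were followed in macrophage-like barcodes and in stroma of cultures set up to grow mesenchymal stromal cells, the fibroblast-like, plastic-adherent cells studied for veterinary therapy. The cultures came from bone marrow, peripheral blood and adipose tissue of 1 healthy Holstein-Frisian cow of WT genotype in its initial lactation, with 1 library per tissue. All were untreated, kept in DMEM of low glucose, with fetal bovine serum added, until colonies were seen, and read with 10x Genomics 3' v3.1 chemistry. No tissue has a replicate, so differences carry counting intervals only and no test could be made.

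MHC class II molecules display peptides from engulfed material to helper T cells, and are made chiefly by macrophages, dendritic cells and B cells. An alpha and a beta chain pair in the endoplasmic reticulum around the invariant chain, which CD74 encodes and which blocks the groove and steers the complex to endosomes. There the invariant chain is cut away and the DM heterodimer, of which BOLA-DMB is the beta chain and BOLA-DMA the alpha chain, exchanges its last fragment for a peptide. BOLA-DRA is the alpha chain of the DR molecule and BLA-DQB a beta chain of the DQ molecule. In mammals these genes share promoter elements and need the coactivator CIITA, and cultured stromal cells are known for little class II unless exposed to interferon gamma. In the RefSeq table of another assembly, ARS-UCD2.0, BLA-DQB is an older name of BOLA-DQB1, the neighbour of BOLA-DQA5. The same table has BOLA-DMB next to BOLA-DMA, BOLA-DRA next to BOLA-DRB2, and CD74 on a different chromosome. Class II chains come in near-identical copies, so reads may have been lost or split between BLA-DQB and the separately listed BOLA-DQB, and both counts are uncertain to that degree.

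Macrophage-like barcodes were those with at least 1 unique molecular identifier (UMI) each of TYROBP, FCER1G and AIF1 and with a low share of stromal-marker UMIs, below 0.5 of the library's median. None of the 4 class II genes was used to choose them. Bone marrow had 550 of them (5.93% of 9281 kept barcodes, exact 95% interval 5.45 to 6.43%). Blood had 92 (2.88% of 3192, 2.33 to 3.52%). Adipose tissue had 0 of 6088, which allows a share of up to 0.0493%. Another 295 barcodes in bone marrow and 70 in blood had all 3 genes but a stromal share at or over that limit, and were kept apart as mixed barcodes. Near the limit, between 0.4 and 0.6 of the median, lay 60 barcodes in bone marrow and 14 in blood. Stroma was the 5710 barcodes of bone marrow, 2677 of blood and 5276 of adipose tissue with 0 UMIs of the 3 genes, with all of COL1A1, COL1A2 and COL3A1, and without the endothelial genes PECAM1 and CDH5.

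The name was set against markers of macrophages and of other cells. Of 17 macrophage markers not used for the choice, 17 had UMIs in the bone marrow set and 16 in the blood set, with MARCO the exception. Presence alone separates little, since 16 of them also had UMIs in bone marrow stroma and 14 in blood stroma. By the 2-fold rule given below, 15 of 15 markers tested in bone marrow were higher than in stroma, and 14 of 14 in blood. Over all genes tested, 15.9% were higher in bone marrow and 13.8% in blood. CSF1R, the receptor for the macrophage growth factor, had 97.9 CPM (the gene's UMIs as a fraction of all UMIs of the set, put on the usual CPM scale) in bone marrow and 162 CPM in blood macrophage-like barcodes. Of cells that also carry class II, B cells were not seen: MS4A1, CD79A, CD79B and PAX5 were at 0 in both sets, and the B cell list summed to 4.62 CPM in bone marrow and 2.66 CPM in blood. The dendritic cell genes FLT3, CLEC9A, XCR1 and ZBTB46 were at 0 in both sets, and that list of 10 summed to 62.7 CPM in bone marrow and 26.6 CPM in blood. Its transcription factors BATF3, with 45.0 CPM in bone marrow and 6.65 CPM in blood, and IRF8, with 17.7 CPM and 19.3 CPM, were read, and the part of dendritic cells in the results was not tested. Genes of the neutrophil list summed to 24381 CPM in bone marrow and 4560 CPM in blood, with CSF3R and CXCR2 at 0. The macrophage list summed to 8709 and 4357.5 CPM. NKG7 of the T or NK cell list and the osteoclast gene ACP5 counted as higher than in stroma in both cultures, and CTSK and the endothelial VWF in bone marrow. CD3D, CD3G, CD2, CD5 and NCR1 were at 0 in both sets. The part of these other cells was not tested. The libraries held 106322567 UMIs for bone marrow, 98016815 for blood and 99356868 for adipose tissue. The libraries shared between 4 and 10 kept barcodes per pair, and 0 macrophage-like ones. Barcodes of very high UMI totals may hold more than 1 cell; no doublet caller was run, and the mixed barcodes were the measure taken against macrophage and stroma doublets.

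In macrophage-like barcodes the DR, DQ and invariant chain genes stood far above their level in stroma of the same culture. BOLA-DRA had 495 CPM in bone marrow macrophage-like barcodes (2038 UMIs, 474 to 517 CPM) and 0.448 CPM in bone marrow stroma (28 UMIs), a ratio of 1106 (763 to 1668). In blood it had 977 CPM in macrophage-like barcodes (1468 UMIs, 927 to 1028 CPM) and 0.525 CPM in stroma (39 UMIs), a ratio of 1862 (1355 to 2629). The size of these ratios depends on which barcodes are taken. With mixed barcodes kept, BOLA-DRA had a ratio of 687 in bone marrow and 907 in blood, and with a stromal share under 0.1 of the median 1260 in bone marrow and 2997 in blood. With every barcode lacking any of the 3 macrophage genes taken as stroma, it was 136 in bone marrow and 1476 in blood. Levels are UMIs of a gene summed over a population and scaled to CPM, and since a 3' count does not measure transcripts on a scale common to all genes, no order is drawn between genes.

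CD74, the invariant chain, gave 402 CPM in bone marrow macrophage-like barcodes (1656 UMIs) and 0.688 CPM in bone marrow stroma (43 UMIs), a ratio of 585 (432 to 812). Its blood values were 929 CPM in macrophage-like barcodes (1397 UMIs) and 0.753 CPM in stroma (56 UMIs), a ratio of 1234 (945 to 1642). BLA-DQB, the DQ beta chain, followed the same order. It had 329 CPM in bone marrow macrophage-like barcodes (1353 UMIs) against 0.608 CPM in stroma (38 UMIs), a ratio of 541 (392 to 768), and 1098 CPM in blood macrophage-like barcodes (1650 UMIs) against 0.672 CPM in stroma (50 UMIs), a ratio of 1632 (1232 to 2208).

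BOLA-DMB, the beta chain of the peptide editor, had a smaller ratio. It gave 42.8 CPM in bone marrow macrophage-like barcodes (176 UMIs, 36.7 to 49.6 CPM) and 2.37 CPM in stroma (148 UMIs), a ratio of 18.1 (14.4 to 22.6). Blood had 152 CPM in macrophage-like barcodes (229 UMIs, 133 to 173 CPM) and 3.30 CPM in stroma (245 UMIs), a ratio of 46.2 (38.4 to 55.6). A gene was counted as higher when its ratio was at least 2 and its higher level at least 50 CPM. By that rule 3 of the 4 genes were higher in macrophage-like barcodes than in stroma of bone marrow, where 15.9% of 3417 genes tested were (and 31.4% were lower), with BOLA-DMB under the 50 CPM floor. In blood 4 of 4 were, against 13.8% of 3390 genes tested (and 10.8% lower).

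**Figure D1:**
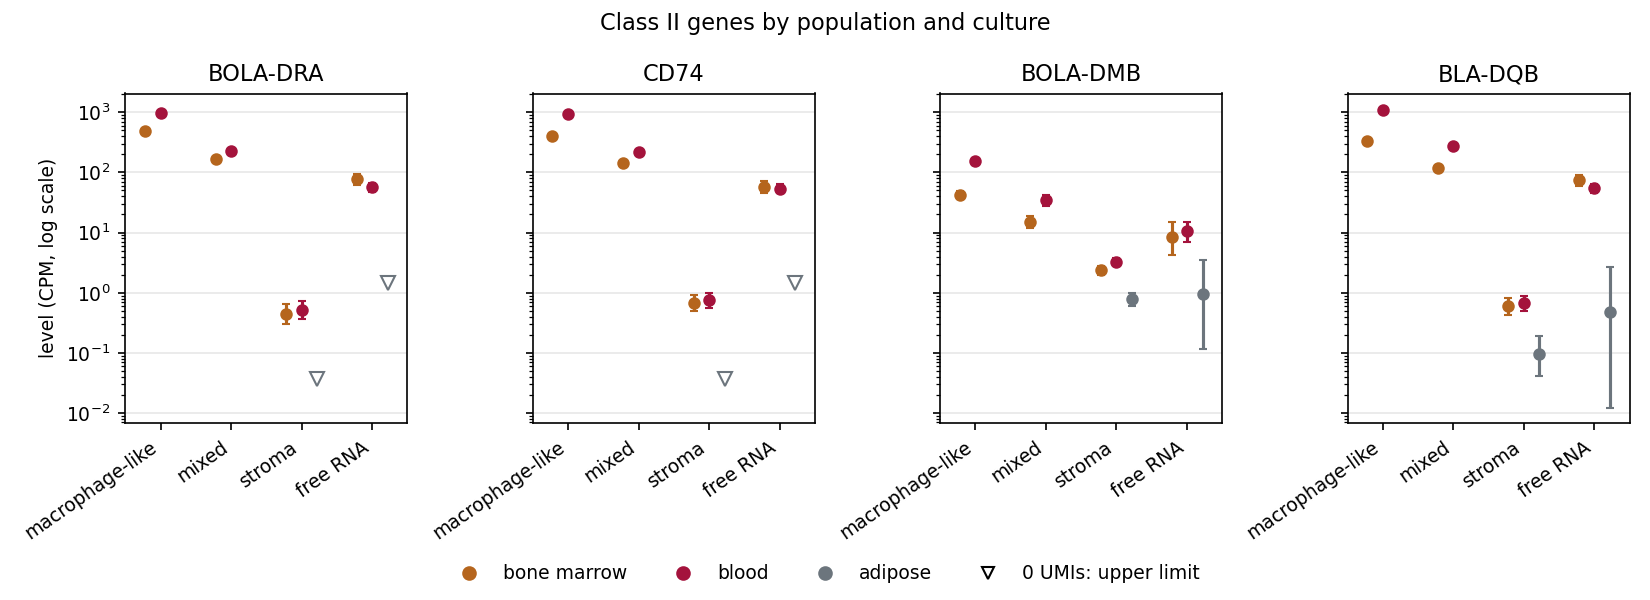
Level of each gene in CPM (log axis) in macrophage-like, mixed and stroma barcodes and in free RNA of bone marrow, blood and adipose cultures; points carry exact 95% counting intervals and open triangles mark the upper limit where 0 UMIs were read. BOLA-DRA falls at 495 and 977 CPM in macrophage-like barcodes of bone marrow and blood and under 1 CPM in all 3 stroma sets, while BOLA-DMB keeps 2.37, 3.30 and 0.774 CPM in stroma.

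BOLA-DRA was also counted by how many of the 3 macrophage genes a barcode held. In bone marrow it had 308 CPM in the 845 barcodes with all 3 genes, 150 CPM in the 137 with 2, 2.79 CPM in the 453 with 1 and 0.588 CPM in the 7846 with 0. In blood the values were 476 CPM with 3 genes, 29.0 CPM with 2, 0.620 CPM with 1 and 0.529 CPM with 0. In blood CD74 and BLA-DQB did not keep that order at the low end, with 0.207 CPM each in barcodes with 1 gene, against 0.743 CPM of CD74 and 0.667 CPM of BLA-DQB in barcodes with 0. In the mixed barcodes the 4 genes lay between the macrophage-like set and stroma. BOLA-DRA had 167 CPM in the mixed barcodes of bone marrow and 226 CPM in those of blood, and BLA-DQB had 117 CPM and 274 CPM in the same sets. Mixed barcodes were also the deepest, with a median of 15193 UMIs in bone marrow and 31445 in blood, against 6174.5 and 10214 UMIs in the macrophage-like sets of those cultures. Free RNA, read from barcodes of 10 to 100 UMIs, carried 76.2 CPM of BOLA-DRA in bone marrow, 56.4 CPM in blood and 0 in adipose tissue.

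What remained in stroma differed between the genes. As a share of the macrophage-like level, the stroma level in bone marrow was 0.0904% for BOLA-DRA, 0.171% for CD74 and 0.185% for BLA-DQB. The 17 macrophage markers gave 0 to 0.740% there, with a median of 0.133%, and these 3 genes sat inside that range. CD14, the marker at 0.740%, had 3.20 CPM in bone marrow stroma and 8.05 CPM in adipose stroma, so it is no measure of background. The source of the UMIs in stroma was not tested. BOLA-DMB was at 5.54% (exact 95% interval 4.68 to 6.50%), above 17 of 17 markers. Its partner BOLA-DMA was at 11.9%.

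Blood showed the same split. BOLA-DRA was at 0.0537% of its macrophage-like level, CD74 at 0.0810% and BLA-DQB at 0.0613%, against a median of 0.0955% over the 16 markers with a value. BOLA-DMB was at 2.16% (1.90 to 2.45%) and BOLA-DMA at 3.62%. The BOLA-DMB share exceeded 14 of the 16 markers, and the exceptions were LAPTM5 at 11.1% and MRC1 at 3.43%. LAPTM5 had 60.8 CPM in blood stroma, so for that gene the stroma of blood is no background.

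**Figure D2:**
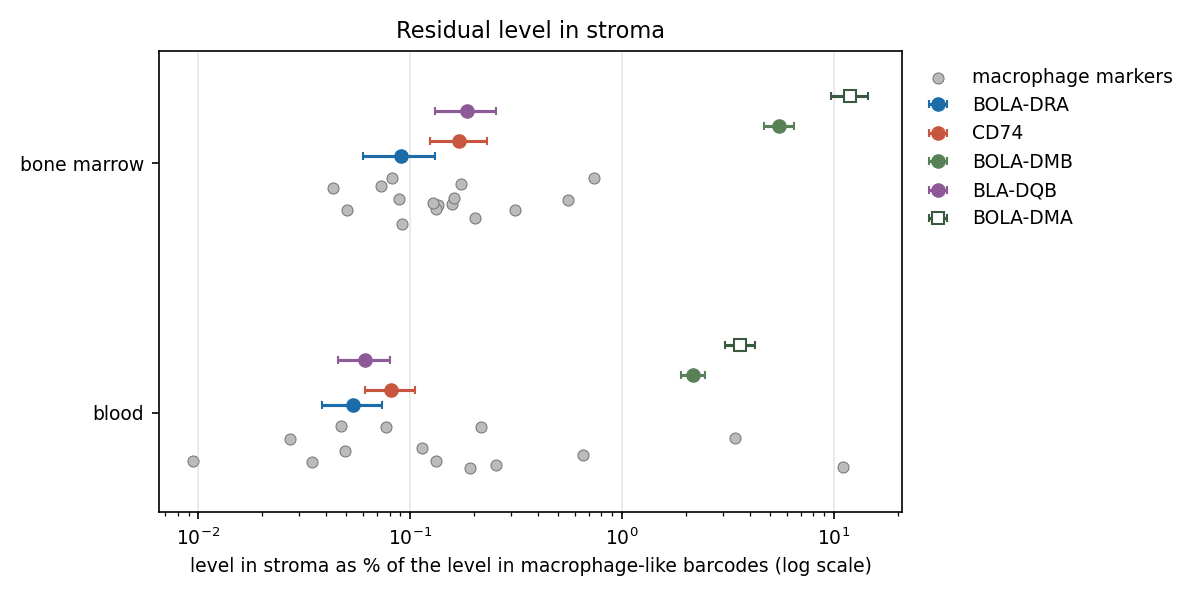
Level in stroma as a percentage of the level in macrophage-like barcodes of the same culture (log axis), for the 4 class II genes, BOLA-DMA and the macrophage markers with a UMI in stroma, with exact 95% intervals for the class II genes. In bone marrow BOLA-DMB is at 5.54% and BOLA-DMA at 11.9%, in blood at 2.16% and 3.62%, and both lie to the right of BOLA-DRA, CD74 and BLA-DQB, all under 0.2%.

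Adipose tissue, the culture without kept macrophage-like barcodes, set the genes apart from each other. Over whole libraries, kept barcodes or not, BOLA-DRA had 4876 UMIs in bone marrow, 4492 in blood and 0 in adipose tissue, and CD74 had 4168, 4221 and 0. Among the 99356868 adipose UMIs a count of 0 allows up to 0.0302 CPM. BLA-DQB had 18 UMIs in the whole adipose library, 8 of them in stroma (0.0967 CPM). BOLA-DMB had 77, of which 64 were in stroma (0.774 CPM) spread over 62 of 5276 barcodes. BOLA-DMA, the other DM chain, was at 1.57 CPM in bone marrow stroma, 1.95 CPM in blood stroma and 2.32 CPM (192 UMIs) in adipose stroma. Both DM chains were thus read in stroma of a culture in which C1QA, C1QB, C1QC and PTPRC, genes of macrophages and other blood cells, were at 0 in stroma. They are 4 of the 8 macrophage markers at 0 there, and the other 9 of the 17 had UMIs, led by CD14 with 666 UMIs (8.05 CPM), LAPTM5 with 221 (2.67 CPM) and CD68 with 98 (1.18 CPM), each above BOLA-DMB.

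Between the stroma sets, all 4 genes stayed under the 50 CPM floor, so 0 of 4 counted as apart in any pair. The share of all genes counted was 3.58% of 3154 higher in bone marrow and 2.69% higher in adipose tissue, 3.78% of 3148 higher in blood and 1.3% higher in adipose tissue, and, for bone marrow against blood, 3.45% of 3128 higher in bone marrow and 3.96% higher in blood. Below the floor, BOLA-DMB was 3.06 times as high in bone marrow stroma as in adipose stroma (2.27 to 4.17) and 4.26 times as high in blood stroma as in adipose stroma (3.22 to 5.70). BLA-DQB was 6.28 (2.89 to 15.6) and 6.95 (3.27 to 17.0) times as high in the same comparisons. With 3 counts put in place of 0 in adipose stroma, the ratio of BOLA-DRA was 12.3 for bone marrow stroma and 14.5 for blood stroma. That of CD74 was 19.0 and 20.8. With the counting error of both sides, the exact lower limits of these ratios were 9.40 and 11.2 for BOLA-DRA and 14.8 and 16.3 for CD74. Bone marrow over blood, the stroma ratios were 0.854 for BOLA-DRA (0.506 to 1.42), 0.913 for CD74 (0.599 to 1.38), 0.904 for BLA-DQB (0.577 to 1.41) and 0.718 for BOLA-DMB (0.582 to 0.885). For the last gene alone the interval lay below 1.

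Single stroma barcodes seldom held more than 1 of these molecules. BOLA-DRA was read in 28 of the 5710 stroma barcodes of bone marrow and 39 of the 2677 of blood, with no more than 1 UMI in any. Of the 28 barcodes in bone marrow, 1 also had CD74 or BLA-DQB, and of the 39 in blood, 2 had. BOLA-DMB was read in 147 stroma barcodes of bone marrow (2.57%), 232 of blood (8.67%) and 62 of adipose tissue (1.18%), at median depths of 9350, 24929 and 14504.5 UMIs. Brought to 3000 UMIs per barcode, those shares were 0.613% in bone marrow (0.427 to 0.851%), 1.01% in blood (0.666 to 1.46%) and 0.208% in adipose tissue (0.104 to 0.373%).

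Macrophage-like barcodes of bone marrow held less class II than those of blood. CD74 in bone marrow was 0.433 of its level in blood (0.403 to 0.465), BLA-DQB 0.299 (0.279 to 0.322) and BOLA-DMB 0.281 (0.229 to 0.343). BOLA-DRA, at a ratio of 0.507 (0.474 to 0.543), just missed the 2-fold rule. Thus 3 of 4 genes counted as lower in bone marrow, where 10.6% of 3043 genes were lower and 4.34% higher in bone marrow. The median gene of that comparison had a log2 ratio of -0.30, and with size factors set from the ratios of all genes BOLA-DRA was at 0.630, CD74 at 0.538, BLA-DQB at 0.372 and BOLA-DMB at 0.349 of its blood level. With those factors 2 of 4 counted, where 467 of 3258 genes tested were apart in either direction. With mixed barcodes kept 2 of 4 also counted (281 of 3052 genes). The count was 4 of 4 with barcodes of at least 1000 UMIs (353 of 2988 genes) and with 2 UMIs of each macrophage gene (438 of 3027). It was also 4 of 4 with per-barcode means (442 of 3054 genes) and with a stromal share under 0.1 of the median (484 of 2963).

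Not all class II chains went this way. BOLA-DQA5, the DQ alpha chain, had 57.6 CPM in bone marrow and 67.9 CPM in blood macrophage-like barcodes, and BOLA-DQB had 62.2 CPM and 65.2 CPM. Neither counted as apart. BOLA-DMA had 13.1 CPM in bone marrow and 53.9 CPM in blood, a ratio of 0.243, close to that of its partner BOLA-DMB. Chains of the DO heterodimer, which inhibits DM, were barely read: BOLA-DOA had 4 UMIs in bone marrow and 13 in blood, and BOLA-DOB 0 and 7.

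Several other measures moved with this comparison, and their part in it was not tested. Stromal-marker genes summed to 886 CPM in bone marrow and 2833 CPM in blood macrophage-like barcodes. The adaptor gene TYROBP, used to choose the barcodes, went the opposite way to class II, with 1597 CPM in bone marrow and 787 CPM in blood. Neutrophil-list genes summed to 24381 CPM in bone marrow and 4560 CPM in blood. S100A12, a calcium-binding alarmin, had 15338 CPM in bone marrow and 357 CPM in blood. S100A8 had 4096 CPM and 36.6 CPM. MMP9, a secreted gelatinase, was lower in bone marrow, with 1480 CPM against 4053 CPM in blood, and the granulocyte receptors CSF3R and CXCR2 were at 0 in both. Osteoclast-list genes summed to 1309 CPM in bone marrow and 407 CPM in blood. With barcodes of a stromal share under 0.1 of the median only (482 in bone marrow, 75 in blood), the ratios were lower still: 0.359 for BOLA-DRA, 0.302 for CD74, 0.226 for BLA-DQB and 0.201 for BOLA-DMB.

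At an equal depth of 3000 UMIs per barcode, class II also reached a larger share of blood macrophage-like barcodes. BOLA-DRA was read in 59.3% of the 550 bone marrow barcodes (55.0 to 63.4%, and 73.1% at full depth) and in 82.6% of the 92 blood barcodes (73.3 to 89.7%, and 95.7% at full depth). In stroma, which serves as the background, it was read in 0.0701% of bone marrow and 0.187% of blood barcodes at that depth. CD74 was read in 54.0% of bone marrow and 82.6% of blood macrophage-like barcodes. BLA-DQB was read in 52.9% (48.6 to 57.1%) and 93.5% (86.3 to 97.6%), and BOLA-DMB in 11.1% (8.59 to 14.0%) and 35.9% (26.1 to 46.5%). At full depth BLA-DQB was read in 92 of the 92 blood barcodes, with a lowest level of 61.9 CPM.

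The barcodes of a culture were far from alike. In bone marrow, BOLA-DRA ranged over single barcodes from 0 to 4874 CPM, with a median of 339 CPM and an upper quartile of 676 CPM. In blood it ranged from 0 to 5224 CPM, with a lower quartile of 428, a median of 1094 and an upper quartile of 2055 CPM. At 3000 UMIs the highest barcode held 13 UMIs of BOLA-DRA in bone marrow and 20 in blood, and 43 of 550 bone marrow barcodes (7.82%) and 34 of 92 blood barcodes (37.0%) had at least 5 UMIs of BOLA-DRA. The variance of the UMI count divided by its mean, which is 1 for pure counting error, was 2.67 in bone marrow and 4.11 in blood for BOLA-DRA, 2.28 and 2.89 for CD74, 2.03 and 2.86 for BLA-DQB, and 1.11 and 1.77 for BOLA-DMB. TYROBP, of which each barcode had to hold a UMI, gave 1.66 in bone marrow and 1.89 in blood. Where levels differ between barcodes, this measure also rises with the mean. For BOLA-DRA the mean was 1.51 UMIs in bone marrow and 4.09 in blood. The measure therefore orders neither the cultures nor the genes by spread.

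**Figure D3:**
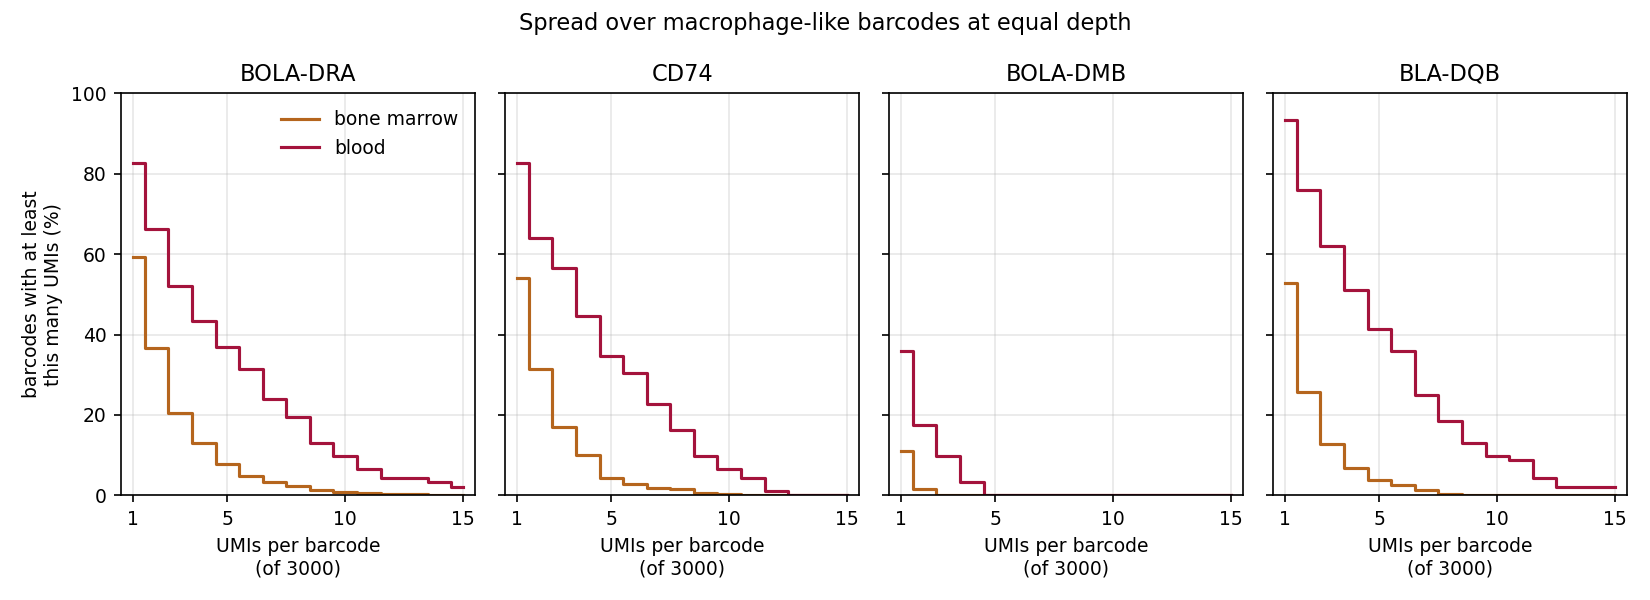
Percentage of macrophage-like barcodes (vertical axis) with at least a given number of UMIs of each gene (horizontal axis, up to 15) after every barcode was brought to 3000 UMIs, for bone marrow (550 barcodes) and blood (92 barcodes). The bone marrow line lies at or below the blood line for all 4 genes: 59.3% of bone marrow and 82.6% of blood barcodes had a UMI of BOLA-DRA, and 7.82% and 37.0% had at least 5.

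Summed over the 4 genes, a bone marrow barcode held a median of 3 UMIs per 3000 (quartiles 1 and 5, highest 29) and a blood barcode 10 (quartiles 5 and 19, highest 43). All 4 genes were read in 32 bone marrow barcodes (5.82%) and 31 blood barcodes (33.7%), and none of them in 113 (20.5%) and 3 (3.26%). The 55 highest of the 550 bone marrow barcodes held 35.5% of the class II UMIs, and the 10 highest of the 92 blood barcodes 28.2%. In bone marrow the 275 deeper barcodes had 504 CPM of BOLA-DRA and the 275 shallower 479 CPM. In blood the 46 deeper barcodes had 794 CPM and the 46 shallower 1465 CPM. BOLA-DRA had a Pearson correlation of -0.13 with the stromal-marker share over the bone marrow barcodes and of -0.52 over those of blood. Its correlation with the log2 of barcode depth was 0.05 over the bone marrow barcodes and -0.39 over those of blood. These correlations, like those below, describe the barcodes of 1 library, share its depth and composition, and carry no p-value.

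The genes varied together from barcode to barcode. On log2(UMIs per 10000 + 1), BOLA-DRA and CD74 had a Pearson correlation of 0.68 over the 550 bone marrow barcodes and 0.90 over the 92 of blood. BOLA-DRA and BLA-DQB had 0.57 in bone marrow and 0.87 in blood, and CD74 and BLA-DQB 0.56 and 0.86. The weakest pairs were those with BOLA-DMB, the gene of fewest UMIs, with 0.25 to 0.29 over bone marrow barcodes, 0.62 to 0.63 over blood barcodes.

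Read as presence or absence at 3000 UMIs, CD74 was present in 70.2% of the 326 bone marrow barcodes with BOLA-DRA and in 30.4% of the 224 without it. In blood it was present in 92.1% of the 76 barcodes with BOLA-DRA and in 37.5% of the 16 without (15.2 to 64.6%). BLA-DQB was present in blood in 96.1% of the barcodes with BOLA-DRA and 81.3% of those without (54.4 to 96.0%). Both genes were read in the same 16 barcodes, their intervals are wide, and a difference between CD74 and BLA-DQB in them was not tested. In bone marrow BLA-DQB was present in 66.0% of barcodes with BOLA-DRA and 33.9% of those without. BOLA-DMB followed at 15.3% and 4.91% in bone marrow, and 42.1% and 6.25% in blood. Of the 33 blood barcodes with BOLA-DMB, 32 also had BOLA-DRA and 33 had BLA-DQB.

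**Figure D4:**
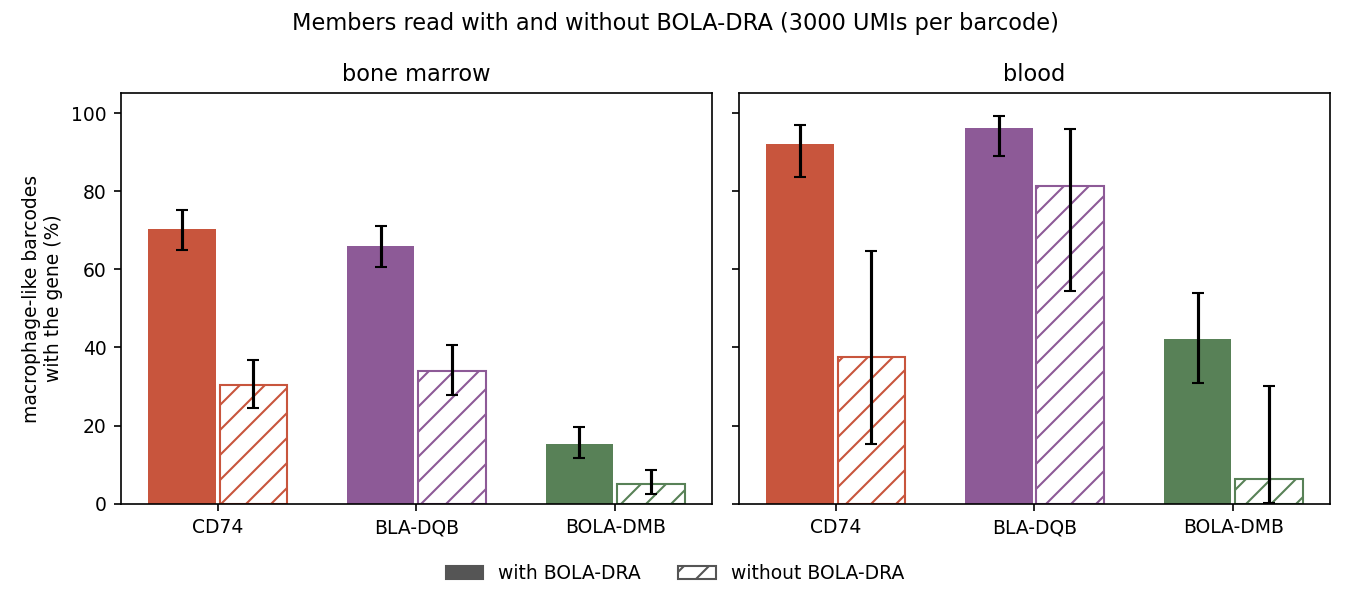
Percentage of macrophage-like barcodes with CD74, BLA-DQB or BOLA-DMB at 3000 UMIs per barcode, among barcodes with BOLA-DRA (filled bars, 326 in bone marrow and 76 in blood) and without it (hatched bars, 224 and 16), with exact 95% intervals. CD74 stands at 70.2% and 30.4% in bone marrow and 92.1% and 37.5% in blood, while BLA-DQB keeps 81.3% among the 16 blood barcodes without BOLA-DRA.

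Among 3363 other genes with a symbol read in at least 20% of the bone marrow macrophage-like barcodes, those most like BOLA-DRA in bone marrow were again class II chains. BOLA-DQB had a correlation of 0.46 in bone marrow and 0.59 in blood, and BOLA-DQA5 0.40 and 0.66. The median over all genes considered was -0.01 in bone marrow, and none was taken for blood. Over blood barcodes the macrophage markers had a median of 0.39 and the stroma markers one of -0.47. High values in blood were thus not particular to class II chains. IFI6, an interferon-induced gene, followed with 0.32 in bone marrow and 0.61 in blood. Then came the translation-associated TPT1, the lysozyme gene LYZ, the Fc receptor gene FCGR3A, B2M, the light chain of MHC class I, PLAC8B, the ferritin light chain FTL and the lysosomal protease gene CTSH, at 0.23 to 0.29 in bone marrow. In blood these 7 had correlations of 0.06 for FCGR3A, 0.28 for TPT1 and 0.53 to 0.68 for the others. All 10 were positive in blood, but the share of all genes positive there was not counted, so that number has no background. In bone marrow, 9 of the 10 were also among the 10 highest by rank correlation on thinned counts.

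Genes at the other end were chosen after their values were seen. They were led by the cytoskeletal actin ACTB at -0.27 in bone marrow and -0.13 in blood, the galectin LGALS1 at -0.27 and -0.24, and the mitochondrial COX3 at -0.24 and -0.34. All 10 lowest genes of bone marrow were negative in blood, where the share of all genes that were negative was likewise not counted. Also chosen after their values were seen were a pair of genes listed by identifier alone, ENSBTAG00000013919 and ENSBTAG00000037605, which had correlations of 0.68 each in bone marrow and 0.91 and 0.89 in blood. Their levels were 429 and 321 CPM in bone marrow macrophage-like barcodes and 933 and 693 CPM in those of blood, and the files and the RefSeq table give them no name.

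**Figure D5:**
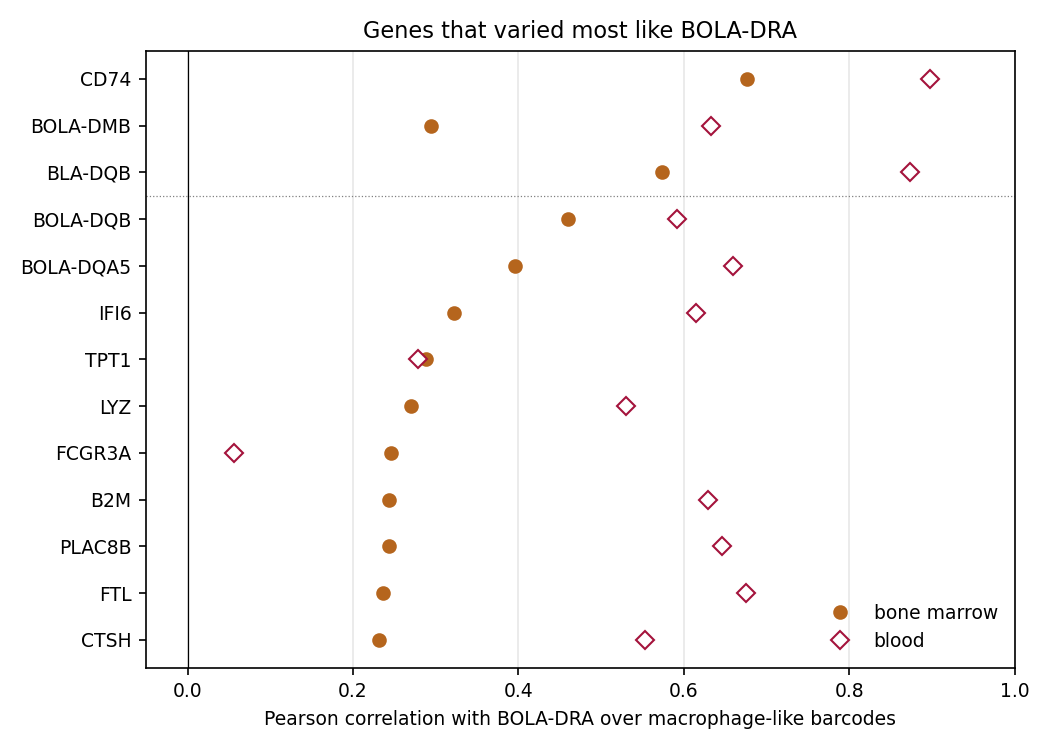
Pearson correlation with BOLA-DRA over macrophage-like barcodes of bone marrow (filled circles, 550 barcodes) and blood (open diamonds, 92 barcodes), for the other 3 genes above the dotted line and the 10 genes most like BOLA-DRA in bone marrow below it. CD74 has the highest values, 0.68 in bone marrow and 0.90 in blood, while FCGR3A is lowest in blood at 0.06.

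The surrounding pathway was read from lists of related genes, counted by the same rule. Of 5 class II chains found by symbol, 4 had enough level to be tested, with BOLA-DYA at 0 UMIs in both macrophage-like sets. In both cultures 4 of 4 were higher in macrophage-like barcodes than in stroma. Over all genes tested, 15.9% were higher in bone marrow and 13.8% in blood. The 4 are BOLA-DRA, BLA-DQB, BOLA-DQA5 and BOLA-DQB, so the count repeats the values of BOLA-DRA and BLA-DQB given above. The median log2 ratio of the 4 was 10.02 in bone marrow and 10.69 in blood, against -0.59 and -0.20 over all genes tested in those cultures. None of 8 transcription genes reached the floor. CIITA, the coactivator of class II promoters, had 3 UMIs in bone marrow and 1 in blood macrophage-like barcodes, and 1, 0 and 0 in stroma of bone marrow, blood and adipose tissue, too few at this depth to show a difference. RFX5, which binds the class II promoter, had 4.13 CPM in macrophage-like barcodes and 4.30 CPM in stroma of bone marrow. MARCHF1 and MARCHF8, ubiquitin ligases known to act on class II, were also below the floor.

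The endosomal processing list holds proteases and a reductase that open and cut antigen and the invariant chain, and the protease inhibitor CST3. Of 9 tested, 8 were higher in macrophage-like barcodes in bone marrow, CST3 among them, and 7 in blood, against 15.9% and 13.8% of all genes tested in those cultures. CTSS, the cathepsin that trims the invariant chain, had 3154 CPM in macrophage-like barcodes and 14.4 CPM in stroma of bone marrow, and 1891 CPM and 24.0 CPM in those of blood. LGMN, the asparaginyl endopeptidase, had 2347 CPM and 40.7 CPM in bone marrow, and IFI30, the thiol reductase, 339 CPM and 28.9 CPM. CTSH was also well read in stroma, with 134 CPM in bone marrow, 203 CPM in blood and 85.5 CPM in adipose tissue. Where bone marrow macrophage-like barcodes had less class II than those of blood, 3 of these 9 genes counted as higher in bone marrow and 0 as lower, against 4.34% and 10.6% of all genes tested. CTSB had 2500 CPM in bone marrow and 630 CPM in blood, CTSD 3455 CPM and 1479 CPM, and CST3 609 CPM and 274 CPM.

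Of the costimulatory genes, CD86, a ligand of CD28 on T cells, had 67.5 CPM in bone marrow macrophage-like barcodes against 0.192 CPM in stroma, and 82.5 CPM in those of blood against 0.0269 CPM in stroma. CD83, which stabilises class II at the surface, had 44.0 CPM in bone marrow macrophage-like barcodes, under the floor, and 53.2 CPM in those of blood, where it counted as higher than in stroma. Among interferon gamma response genes, IFNGR1, JAK1 and PSMB9 counted as higher in macrophage-like barcodes than in stroma of bone marrow, and IFNGR1, PSMB9 and TAP1 in those of blood. Between the macrophage-like sets, IRF1 (16.3 CPM in bone marrow, 51.9 CPM in blood) and PSMB9 (70.5 CPM and 162 CPM) counted as lower in bone marrow. In stroma, PSMB9, the interferon-induced proteasome subunit, was at 31.5 CPM in bone marrow, 52.7 CPM in blood and 4.96 CPM in adipose tissue.

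CD74 is also the surface receptor of the cytokine MIF, with CD44 and CXCR4 as partners in signalling. CXCR4 had 209 CPM in bone marrow macrophage-like barcodes against 0.736 CPM in stroma, and 293 CPM in those of blood against 0.834 CPM in stroma. CD44 counted as higher than in stroma in bone marrow alone, with 557 CPM in macrophage-like barcodes and 217 CPM in stroma, and had 181 CPM and 209 CPM in blood. Between the macrophage-like sets, MIF was lower in bone marrow, with 598 CPM against 1263 CPM in blood, and CD44 was 3.08 times as high in bone marrow as in blood. MIF and its relative DDT did not count as higher than in stroma in either culture.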

How the data were processed

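The deposited matrices hold counts, that is whole UMI numbers for every gene in every barcode, made by the authors with Cell Ranger (version 4 per the file headers, but 6.1.1 per the submitters' processing notes) on ARS-UCD1.2, also per the submitters' processing notes. The sources used here do not give how reads shared by near-identical genes were counted. The matrices hold all barcodes. A barcode was kept when its total reached a 10th of the 99th percentile over the 3000 largest barcodes, which was 4414 UMIs for bone marrow, 7489 for blood and 4438.5 for adipose tissue.

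UMIs were summed per population and library and given as CPM. Ratios carry exact conditional 95% intervals, levels exact Poisson ones and shares Clopper-Pearson ones, all covering counting error only. A count of 0 was given an upper limit of 3 counts. A gene was tested when it reached 50 CPM on the higher side, and counted as apart at a ratio of at least 2. Shares were computed after thinning each barcode to 3000 UMIs. The alternatives were all barcodes of at least 1000 UMIs, 2 UMIs of each of the 3 macrophage genes, mixed barcodes kept, every barcode without all 3 genes taken as stroma, per-barcode means, size factors, a floor of 10 CPM, no floor, thinning to 6000 UMIs, and rank correlation. The blood threshold in every library and a stromal share under 0.1 were added after seeing the data. The calculations were tested on simulated counts. The genes and lists (133 of 142 entries found by symbol) were chosen with earlier results of these data known. Named genes are the 4 genes, list genes apart by the rule, and the 10 genes most like BOLA-DRA in bone marrow, and others were named after their values were seen. Some list genes are not reported here. Tools were numpy 2.4.6, scipy 1.17.1, pandas 2.3.3 and matplotlib 3.10.9.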

Additional observations from a re-analysis of the deposited data

Results flagged for a closer look

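Signals of BOLA-DRA also appeared in barcodes left out of the comparisons. Barcodes that met the macrophage-like rule with at least 1000 UMIs but below the UMI threshold had 625 CPM of BOLA-DRA in bone marrow (532 barcodes, median 3181 UMIs) and 1396 CPM in blood (214 barcodes, median 5655 UMIs). Both exceed the levels in kept macrophage-like barcodes of the same culture, 495 CPM in bone marrow and 977 CPM in blood. Free RNA, from barcodes of 10 to 100 UMIs, held 76.2 CPM of BOLA-DRA in bone marrow and 56.4 CPM in blood. These values were set against 0 UMIs in the free RNA of adipose tissue.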

How the results depend on the processing

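No paired analysis was possible because each tissue has 1 library and there are no replicates to pair or leave out. Of 160 alternative values of the genes' ratios, 119 moved by less than their counting interval and 41 by more, and none changed the direction of a difference that was counted. Bone marrow over blood, macrophage-like ratios ranged over 9 settings from 0.359 to 0.647 for BOLA-DRA, 0.302 to 0.556 for CD74, 0.201 to 0.366 for BOLA-DMB and 0.226 to 0.379 for BLA-DQB, all below 1. Taking every barcode without all 3 macrophage genes as stroma lowered the bone marrow macrophage-like to stroma ratio to 136 for BOLA-DRA, 137 for CD74 and 98.7 for BLA-DQB, and put their bone marrow over blood stroma ratios at 5.51, 3.77 and 5.04, above 1. That set adds 2726 bone marrow barcodes, 453 of them with 1 and 137 with 2 of the macrophage genes, the rest without the collagen genes or with endothelial ones. In blood, macrophage-like to stroma ratios ranged from 907 to 2997 for BOLA-DRA, 604 to 2009 for CD74, 22.3 to 76.1 for BOLA-DMB and 815 to 2493 for BLA-DQB, lowest with mixed barcodes kept and highest with the stromal share under 0.1. Counts over all genes moved with the floor and the barcodes included. With mixed barcodes kept, 325 genes were higher than in stroma in bone marrow and 214 in blood, and 281 were apart between the macrophage-like sets, against 542, 467 and 456. With the stromal share under 0.1, 754 were higher in blood. A floor of 10 CPM gave 1200, 1051 and 1297, and, between stroma of bone marrow and adipose, blood and adipose, and bone marrow and blood, 553, 433 and 582, against 198, 160 and 232. With no floor and at least 10 UMIs the counts were 2017, 1824 and 2107, and 2343, 2008 and 2289. At that setting 4 of 4 class II genes counted as apart between stroma of bone marrow and adipose tissue, where 2343 of 13517 genes tested did. Between stroma of blood and adipose tissue 4 of 4 did, where 2008 of 13529 genes tested did. The cause was not tested beyond the number of genes tested, which each floor sets. Depth limits the stroma levels, which rest on 28 to 245 UMIs in bone marrow and blood.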

Other observations

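Below the UMI threshold, the adipose library held 4 barcodes that met the macrophage-like rule, with 11380 UMIs in all. They had 21 UMIs of TYROBP, 29 of FCER1G, 10 of AIF1, 16 of CD14, 16 of CD68, 5 of CSF1R and 4 of PTPRC. CSF1R was at 0 in 1 of these barcodes and PTPRC in another. Genes of the neutrophil list had more UMIs, with 83 of S100A12 and 75 of MMP9. Which cell type these barcodes hold was not tested. BLA-DQB was read in all 4 barcodes, with 1, 1, 1 and 3 UMIs, or 527 CPM (193 to 1148). BOLA-DRA, CD74, BOLA-DMB, BOLA-DQB, BOLA-DQA5 and both unnamed genes that followed BOLA-DRA elsewhere were at 0, which allows up to 264 CPM each. In comparison, macrophage-like barcodes below the threshold had 625 CPM of BOLA-DRA, 567 CPM of CD74 and 578 CPM of BLA-DQB in bone marrow, and 1396, 1316 and 1544 CPM of the same genes in blood. The 4 barcodes were looked at after the other results were seen, and so few UMIs give each level a wide interval.

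The adipose library also held 39 kept barcodes with at least 3 endothelial markers, a cell type that in humans can carry class II. They had 0 UMIs of BOLA-DRA, CD74 and BLA-DQB and 2 of BOLA-DMB among 437527 UMIs, which allows up to 6.86 CPM for each gene at 0. Bone marrow and blood had 0 such barcodes.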
